A study of Rattus norvegicus with 12 samples.

Results

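The neurotrophins and the glial cell line-derived neurotrophic factor (GDNF) with their receptors were examined as 8 genes, 3 ligands (*Bdnf*, *Ntf3* and *Gdnf*) and 5 receptors (*Ntrk2*, *Ntrk3*, *Ngfr*, *Gfra1* and *Ret*), found by gene name among the 37209 genes of the count table. RNA from the central nucleus of the amygdala (CeA) was sequenced from 12 wild type male Sprague Dawley rats aged 14 to 16 weeks, 1 library per rat. The 6 rats of the CIE group had been exposed to chronic intermittent ethanol vapor, and their tissue was taken at the end of the last exposure, whereas the 6 Control rats breathed air. Sample labels number the CIE rats 1 to 6 and the Control rats 7 to 12, and an effect of that order and an effect of CIE cannot be told apart. Library totals lay between 61978486 and 78441691 counts for CIE rats and between 39082548 and 95647601 for Control rats. Rats of the same group were far from identical, with a variance between pairs of 17.5 to 215 times what counting error alone gives. All 12 listed markers of central amygdala neurons passed the filter on low counts, and their summed level varied from 672 to 2415 CPM (counts scaled to a common library total) among CIE rats and from 802 to 2843 CPM among Control rats.

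Neurotrophins are secreted growth factors that keep neurons alive and tune their synapses. BDNF acts mainly through the receptor tyrosine kinase TrkB, the product of *Ntrk2*, and NT-3, the product of *Ntf3*, mainly through TrkC, the product of *Ntrk3*, while all neurotrophins and their precursors can bind p75NTR, the product of *Ngfr*. GDNF binds the membrane-anchored co-receptor GFRα1 (*Gfra1*), and the complex signals through the receptor tyrosine kinase RET. In the adult forebrain BDNF is made mainly by glutamatergic neurons, TrkB is found in neurons and astrocytes, and p75NTR marks the cholinergic neurons of the basal forebrain, which lies next to the CeA. Both BDNF and GDNF have been studied as brakes on alcohol drinking in rodents.

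*Bdnf* is transcribed from several alternative promoters, and calcium-dependent transcription through the factor CREB is a well known way in which its level follows neuronal activity. Promoter windows of 250 bases before to 50 bases after the transcription start were taken from RefSeq, rat build GRCr8, which held 12 windows for 5 of the 8 genes, 6 of them for *Bdnf*, 3 for *Ntf3* and 1 each for *Gdnf*, *Gfra1* and *Ret*. There was no entry for *Ntrk2*, *Ntrk3* or *Ngfr*. The half-site of the cAMP response element, the 5 letters CGTCA, was searched on both strands without any other motif. It was found in 1 *Bdnf* window, with its first base 35 bases before the start, and in the *Gdnf* window, 49 bases before the start. Over all 33469 promoter windows of this length, 21.2% held it. Some windows of *Bdnf* and some of *Ntf3* overlap one another, so the 12 are not all separate. The 2 windows with a match are printed 5′ to 3′ because they are the only ones of the 12 that hold these 5 letters, marked by capitals.
Bdnf, GRCr8 chr3:116637608-116637907, plus strand: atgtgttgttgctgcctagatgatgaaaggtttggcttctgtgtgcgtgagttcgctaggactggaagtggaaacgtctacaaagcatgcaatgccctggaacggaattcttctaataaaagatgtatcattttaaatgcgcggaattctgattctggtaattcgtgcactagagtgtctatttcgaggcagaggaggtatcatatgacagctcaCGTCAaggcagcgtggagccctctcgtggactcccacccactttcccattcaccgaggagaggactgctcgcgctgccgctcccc
Gdnf, GRCr8 chr2:58621077-58621376, plus strand: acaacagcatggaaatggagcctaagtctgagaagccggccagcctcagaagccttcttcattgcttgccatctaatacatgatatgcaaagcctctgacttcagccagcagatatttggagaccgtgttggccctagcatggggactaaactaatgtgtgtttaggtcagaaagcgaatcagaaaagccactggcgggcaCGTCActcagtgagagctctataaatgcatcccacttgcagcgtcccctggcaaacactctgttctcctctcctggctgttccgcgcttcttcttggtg
The counts are sums over all transcripts of a gene, so they do not say which *Bdnf* promoter was used, and the coordinates are those of RefSeq and not of Rnor_6.0, to which the reads were mapped. A match of 5 letters is a description of the window.

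To ask whether expression of these genes differed after CIE, the 2 groups were compared with edgeR's quasi-likelihood F test over the 20944 genes that passed the filter, and all 8 genes were among them. None of the 8 passed a nominal threshold of 0.05 (unadjusted p value), where 8.31% of all genes tested did, and none passed 5% FDR (Benjamini-Hochberg, over all genes tested), where 0.363% of all genes did. In none of the 8 did the 6 CIE values stay clear of the 6 Control values, against 0.893% of all genes with no overlap. DESeq2 gave a nominal p value below 0.05 for 1 of the 8 genes (*Ntf3*), where it did so for 9.22% of all genes. Limma-voom, run with sample quality weights that let some rats count for less, gave 2 (*Bdnf* and *Ntf3*), against 17.2% of all genes. Neither gave any of the 8 at 5% FDR. The estimates were nevertheless not alike in size. *Bdnf* and *Ntf3* had higher mean levels in the CIE group with intervals that reached just below 0, *Ntrk2* and *Ntrk3* lay close to 0 with narrow intervals, and *Ngfr* had the widest interval. Levels are not comparable between genes here, since CPM takes no account of gene length. The RNA came from tissue with several cell types, so fewer cells of a type and less RNA per cell cannot be told apart.

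**Figure D1:**
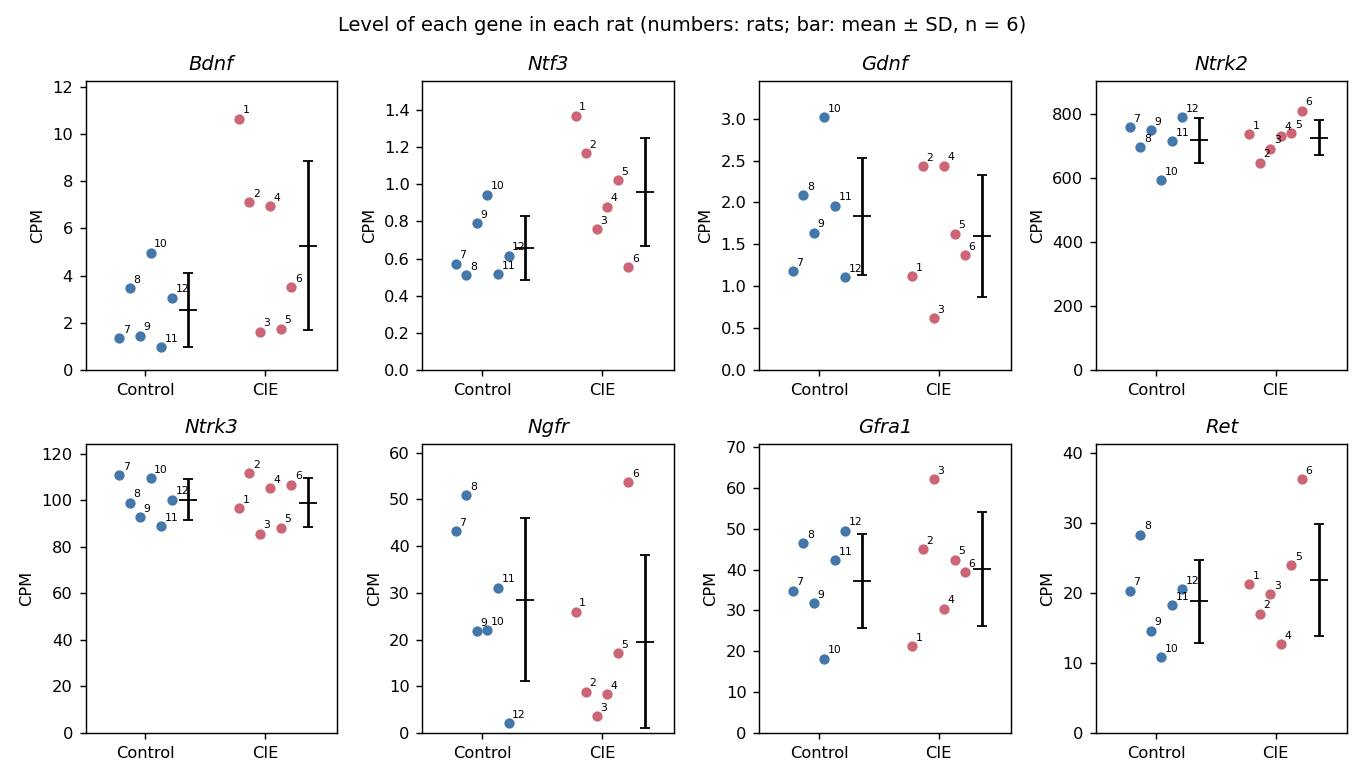
Level of each of the 8 genes in each rat, in CPM on a linear axis that starts at 0, with rats as numbered points and the mean ± SD of each group (n = 6) as a black bar. *Ntrk2* and *Ntrk3* sit in a narrow band in both groups, 3 CIE rats (1, 2 and 4) lie above every Control rat for *Bdnf*, and *Ngfr* spreads over a more than 15-fold range within each group.

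Among the ligands, *Bdnf* had the largest estimate. Its level was 1.62 CPM in the lowest CIE rat, 5.23 CPM at the median and 10.6 CPM in the highest, against 0.982, 2.26 and 4.97 CPM in the Control rats. CIE rats 1, 2 and 4 lay above every Control rat, and CIE rats 3 and 5 lay below the Control median, so the groups overlapped. Its mean was 5.26 ± 3.57 CPM for CIE and 2.55 ± 1.55 CPM for Control (SD, n = 6 each). This was a log2 fold change of 1.04 (SE 0.49, edgeR, FDR = 0.615), or a 2.05-fold ratio with a 95% interval from 0.985 to 4.29. The nominal p value from edgeR was p = 0.0543, and a two-sided exact permutation test of the means over all assignments of rats to groups, whose smallest possible p is 0.00216, gave p = 0.102.

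*Ntf3*, the ligand of TrkC, was scarce, with 45 to 89 counts per CIE library and 20 to 56 per Control library. Its level was 0.555, 0.950 and 1.37 CPM in the lowest, median and highest CIE rat and 0.510, 0.593 and 0.943 CPM in the Control rats. CIE rats 1, 2 and 5 lay above every Control rat and CIE rat 6 lay below the Control median. Its log2 fold change was 0.54 (SE 0.25, 95% interval from -0.0045 to 1.08, edgeR, FDR = 0.607). The nominal p value from edgeR was p = 0.0517, and the exact permutation test of the means gave p = 0.0606.

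*Gdnf* did not share this direction. The lowest, median and highest levels were 0.618, 1.498 and 2.44 CPM in the CIE rats and 1.11, 1.80 and 3.02 CPM in the Control rats, from 40 to 164 and from 76 to 201 counts per library. No CIE rat lay above the highest Control rat (rat 10). The log2 fold change was -0.19 (SE 0.33, 95% interval from -0.90 to 0.51, edgeR, FDR = 0.921), and the exact permutation test gave p = 0.576. The sign was not settled, as the estimate was 0.0062 without Control rat 10. With all rats kept it was 0.048 with limma-voom and 0.22 with the myelin score as a covariate.

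The Trk receptors were the most even of the 8 genes. *Ntrk2* lay between 648 and 810 CPM in the CIE rats (median 735) and between 593 and 790 CPM in the Control rats (median 732), and its coefficient of variation was 7.48% and 9.64%. On the log2 scale the groups differed by 0.02 (SE 0.08, edgeR, FDR = 0.970), and the 95% interval of the ratio ran from 0.905 to 1.13. The sum over transcripts holds both the full-length receptor and the form without the kinase, which were not separated. *Ntrk3* lay between 85.6 and 112 CPM in the CIE rats (median 101) and between 88.9 and 111 CPM in the Control rats (median 99.7). Its log2 fold change was -0.02 (SE 0.08, edgeR, FDR = 0.972), with an interval of the ratio from 0.875 to 1.12. For both receptors these intervals leave room for small differences in either direction. The sign of each estimate turned when single rats were left out.

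*Ngfr*, the gene of p75NTR, varied most. Its level ran from 3.54 CPM in CIE rat 3 through a median of 13.0 to 53.7 CPM in CIE rat 6, a 15.2-fold range, and from 2.07 CPM in Control rat 12 through a median of 26.6 to 51.0 CPM in Control rat 8, a 24.6-fold range. The groups covered nearly the same range, although 5 of the 6 CIE rats lay below the Control median. The estimate was -0.54 on the log2 scale (SE 0.65, 95% interval from -1.93 to 0.85, edgeR, FDR = 0.878), with an exact permutation p of 0.396. It moved to -1.16 without CIE rat 6 and to -0.28 without Control rat 8, in both cases without passing the nominal threshold.

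For the GDNF receptors, *Gfra1* was at 21.3, 40.9 and 62.2 CPM in the lowest, median and highest CIE rat and at 18.2, 38.6 and 49.6 CPM in the Control rats. Its log2 fold change was 0.11 (SE 0.25, 95% interval from -0.43 to 0.65, edgeR, FDR = 0.942). *Ret* was at 12.7, 20.5 and 36.2 CPM in the CIE rats and at 10.8, 19.3 and 28.3 CPM in the Control rats, with a log2 fold change of 0.22 (SE 0.24, 95% interval from -0.31 to 0.74, edgeR, FDR = 0.871). For each of these 2 genes 1 CIE rat lay above every Control rat, rat 3 for *Gfra1* and rat 6 for *Ret*, and the estimate of *Ret* was 0.012 without CIE rat 6.

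**Figure D2:**
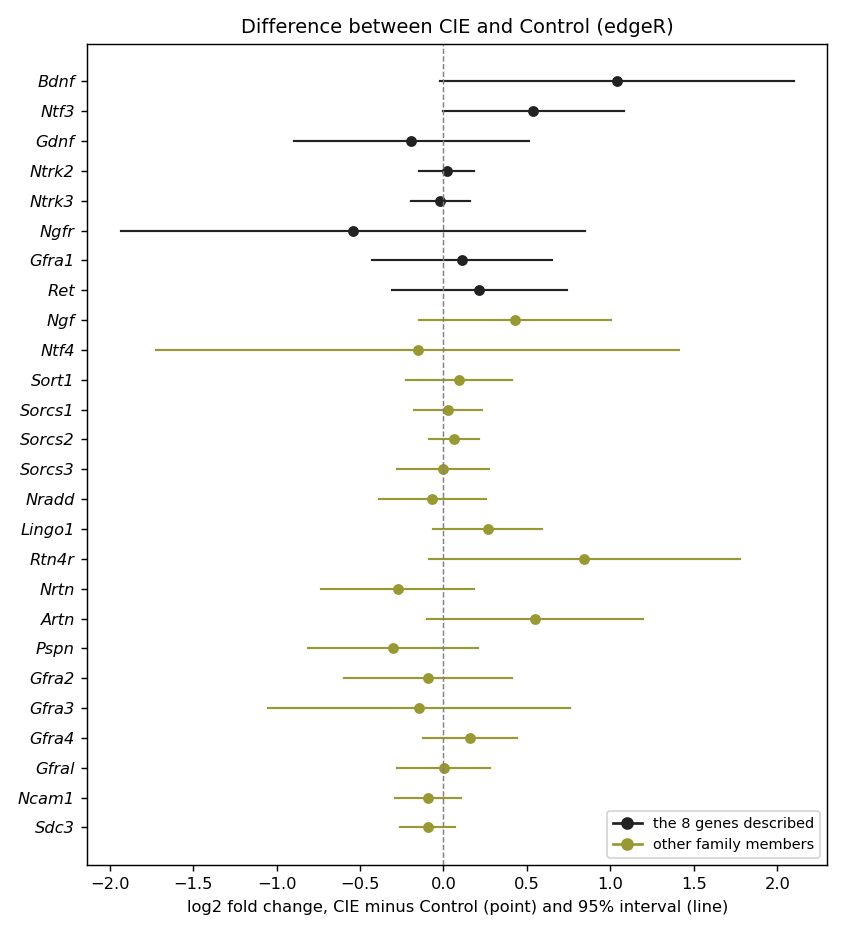
Log2 fold change between CIE and Control (points, x axis) with its 95% interval (lines) from edgeR, for the 8 genes in black and for 18 further ligands and receptors of both families in olive. The intervals of *Ntrk2* and *Ntrk3* are narrow and lie around 0, those of *Bdnf* and *Ntf3* extend to the right and end just below 0, and no interval of the 26 genes excludes 0.

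Because a ligand and its receptor are read in the same library, their ratio does not depend on how libraries are scaled. The log2 ratio of *Bdnf* to *Ntrk2* differed by 0.93 between the groups (SD 1.15 in the CIE and 1.01 in the Control group), with an exact permutation p of 0.165, and that of *Ntf3* to *Ntrk3* by 0.53 (SD 0.49 and 0.34), with an exact p of 0.0541. After Benjamini-Hochberg adjustment over the 6 ratios compared, these values were 0.494 and 0.325. The ratio of the receptors, *Ntrk2* to *Ntrk3*, differed by 0.04 on the log2 scale (SD 0.19 and 0.22, exact p = 0.717), that of *Ret* to *Gfra1* by 0.10 (exact p = 0.736), that of *Bdnf* to *Ntf3* by 0.43 (exact p = 0.342) and that of *Ngfr* to *Ntrk2* by -0.60 (exact p = 0.509).

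The surrounding pathway was described with 6 lists that hold 107 tested genes. Of these, 2 (1.87%) had a nominal p value below 0.05, both higher in the CIE group, against 8.31% of all genes tested, and none passed 5% FDR. With limma-voom the number was 23 (21.5%, against 17.2% of all genes), and with 1 rat left out it ran from 1 (Control rat 9, 0.935% against 6.38%) to 15 (CIE rat 3, 14.0% against 13.3%), so a share below that of all genes was not kept in every setting. The 107 genes had a median log2 fold change of 0.01, and all genes tested had one of 0.00096. No gene was called among the 9 other neurotrophins and their receptors (log2 fold changes from -0.15 to 0.84), the 9 other GDNF family ligands and receptors (-0.30 to 0.55), the 12 enzymes and inhibitors that process proneurotrophins (-0.16 to 0.48) or the 15 transcription regulators of *Bdnf* (-0.24 to 0.28). Of 44 adaptors and signaling enzymes 1 was called, *Pik3r1*, a regulatory subunit of phosphoinositide 3-kinase. Of 18 feedback genes and targets 1 was called, *Junb*, an activity-induced AP-1 transcription factor.

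*Junb* was higher in the CIE group at the nominal threshold, with levels of 25.4, 50.3 and 59.2 CPM in the lowest, median and highest CIE rat and of 22.6, 29.8 and 40.4 CPM in the Control rats. CIE rats 2, 3, 4 and 5 lay above every Control rat and CIE rat 6 lay below the Control median. Its log2 fold change was 0.60 (SE 0.19, edgeR, FDR = 0.318). Without CIE rat 6 it was 0.73 and its FDR was 0.0458, and with the myelin score as a covariate it was 0.17 and did not pass the nominal threshold. As most myelin markers were lower in the CIE group, CIE and the myelin score cannot be told apart in that fit. *Pik3r1* averaged 130 ± 16.3 CPM for CIE and 115 ± 8.85 CPM for Control (SD, n = 6 each). Its difference on the log2 scale was 0.19 (SE 0.08, edgeR, FDR = 0.584). It no longer passed the nominal threshold when any one of CIE rats 2, 4 and 6 or Control rats 7, 8, 9, 11 and 12 was left out (down to 0.12 without CIE rat 2). Nor did it pass with the cortical and basolateral (0.10), cholinergic (0.18) or central amygdala (0.17) score as a covariate. All 12 cortical and basolateral markers had positive log2 fold changes, so that score and CIE cannot be told apart in that fit.

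Since the differences between rats were wide for several of the 8 genes, the levels of other genes were followed across the same rats after the group means were removed. The 3 genes whose log2 CPM was most like that of each gene, or the first 2 for *Ngfr*, are given here as a description, over 12 rats and 20944 genes compared. For *Ngfr* they were *Chat*, the enzyme that makes acetylcholine (r = 0.97), and *Slc5a7*, the choline transporter of cholinergic terminals (r = 0.97). *Chat* ran from 11.2 to 42.5 CPM in the CIE rats and from 5.87 to 46.3 CPM in the Control rats, and *Slc5a7* from 28.4 to 105.2 and from 14.8 to 96.4 CPM. For both genes the lowest rat of each group was the one in which *Ngfr* was lowest, CIE rat 3 and Control rat 12. Without the 2 rats farthest from the median of the partner gene r was 0.90 and 0.92, within the CIE rats alone it was 0.95 and 0.93, and within the Control rats alone 0.99 and 0.995. *Lhx8*, a transcription factor of basal forebrain cholinergic neurons, was the 23rd most alike (r = 0.91), and the cholinergic markers *Gbx1* and *Ache* followed less closely (r = 0.70 and 0.60).

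For *Bdnf* the most alike genes were *Epha7*, an ephrin receptor (r = 0.93), LOC102550963 (r = 0.92) and *Tbr1*, a transcription factor of cortical glutamatergic neurons (r = 0.92). For *Ret* they were *Fam19a4*, *Fam149a* and *Csf1*, the growth factor of microglia (r = 0.95, 0.94 and 0.94), and for *Gfra1* they were *Wbscr28*, the kinase gene *Fyn* and *Dlx1*, a homeobox gene of GABAergic neurons (r = 0.94, 0.94 and 0.93). *Ntrk3* was followed by *Purb*, LOC102548988 and *Gk5* (r = 0.97, 0.96 and 0.94), and *Ntrk2* by LOC102549910, *Spire1* and *Exoc6b* (r = 0.94, 0.94 and 0.93). *Ntf3* was followed by *Spns1*, *Rnf112* and LOC688286 (r = 0.93, 0.92 and 0.92), and *Gdnf* by *Slc35e1*, *Grm4* and *Zscan29* (r = 0.94, 0.93 and 0.93). These are the highest of the correlations with all genes compared.

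**Figure D3:**
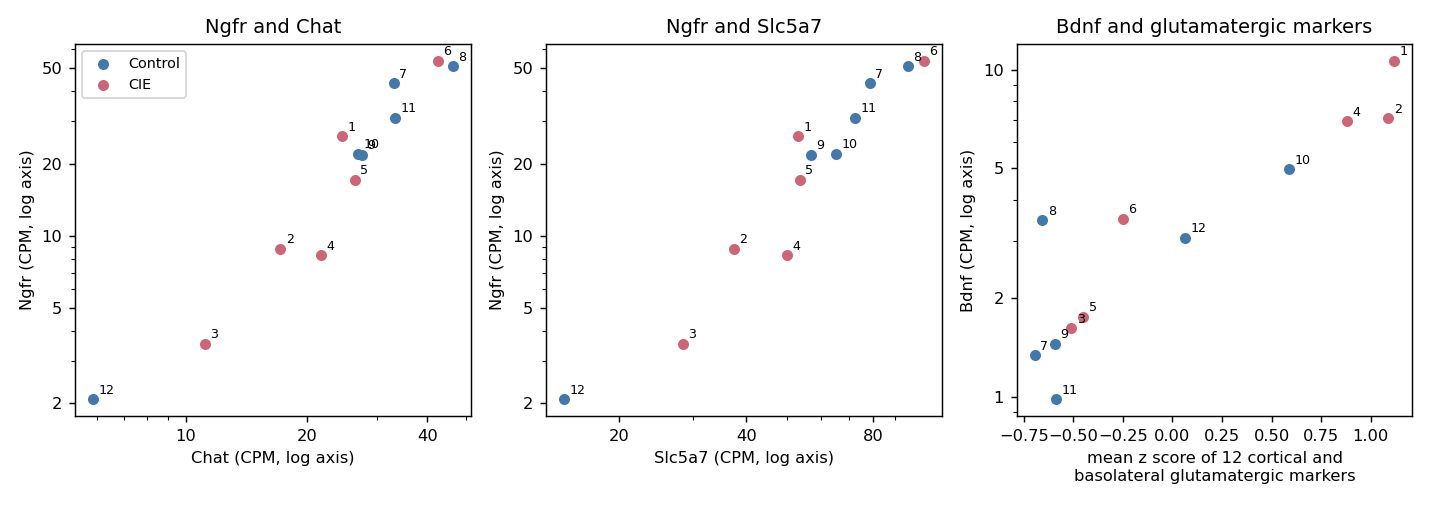
*Ngfr* against *Chat* (left) and against *Slc5a7* (middle), in CPM on log axes, and *Bdnf* in CPM (log axis) against the mean z score of 12 cortical and basolateral glutamatergic markers (right), with 1 numbered point per rat in the color of its group. *Ngfr* is lowest in Control rat 12 and CIE rat 3 and highest in CIE rat 6 and Control rat 8 along both axes, and CIE rats 1, 2 and 4 with Control rat 10 are highest in the right panel.

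The cell type markers were then set beside the 8 genes, as a punch of the CeA can hold more or less of its neighbours. The 12 markers of cortical and basolateral glutamatergic neurons all had positive log2 fold changes, with a median of 1.04, and 3 of them (*Neurod2*, *Rspo2* and *Slc30a3*) had a nominal p value below 0.05, none of them at 5% FDR. This number rested on single rats, being 1 without CIE rat 1, 5 without CIE rat 3 and 8 without Control rat 10, and it was 7 with limma-voom. Their summed level ran from 744 to 1492 CPM in the CIE rats and from 575 to 1369 CPM in the Control rats. Much of that sum was *Camk2a*, at 393 to 808 CPM in the CIE rats and 286 to 812 CPM in the Control rats. Single markers could range far more widely, as did *Slc17a7*, from 5.21 to 348 CPM (CIE) and from 3.66 to 130 CPM (Control). The score of this list and *Bdnf* moved together across rats, with r = 0.88 and rho = 0.87 over 12 rats after the group means were removed, r = 0.96 within the CIE rats and 0.74 within the Control rats, and r = 0.81 without CIE rat 1 and Control rat 10. With that score as a covariate the log2 fold change of *Bdnf* was 0.05 (SE 0.31, edgeR, FDR = 0.981), and that of *Ntf3* was 0.28 (SE 0.25, FDR = 0.847). As all 12 of these markers had positive log2 fold changes, CIE and this score cannot be told apart in these fits. The part of these cells in the levels of *Bdnf* and *Ntf3* was not tested beyond these values.

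In all, 88 relations between the 8 genes and 11 marker lists were computed, with 100000 permutations of the rats within their groups. These relations were chosen after the data were seen, so their p values are not those of a planned test. By Pearson's r, 3 passed 5% FDR, that of *Bdnf* with the cortical and basolateral list (permutation p = 0.00119, adjusted p = 0.0349, adjusted p of rho = 0.0707), that of *Ret* with the list of oligodendrocyte precursor cells (OPCs) and that of *Ngfr* with the myelin list. By Spearman's rho 1 passed, that of *Ret* with the striatal list, and none passed by both. *Ret* went with the OPC markers (r = 0.87, rho = 0.83, permutation p = 0.00047, adjusted p = 0.0317, adjusted p of rho = 0.0707, r = 0.74 without CIE rat 6 and Control rat 10) and against the striatal markers (r = -0.81, rho = -0.92, permutation p = 0.00284, adjusted p = 0.0625, adjusted p of rho = 0.0211, r = -0.86 without CIE rat 2 and Control rat 10).

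*Ngfr* went with the myelin markers (r = 0.87, rho = 0.77, permutation p = 0.00072, adjusted p = 0.0317, adjusted p of rho = 0.157, r = 0.82 without CIE rats 3 and 6). Of these 12 markers 11 were lower in the CIE group at a nominal p value below 0.05, with a median log2 fold change of -0.58 and sums from 5622 to 13710 CPM in the CIE rats and from 8670 to 16230 CPM in the Control rats. With the myelin score as a covariate the log2 fold change of *Ngfr* turned from -0.54 to 1.21 (SE 0.53, edgeR, FDR = 0.437), which passed the nominal threshold. Since the myelin markers themselves differed between the groups, CIE and the myelin score cannot be told apart in that fit. A list of basal forebrain cholinergic markers, chosen after the values were seen, holds *Chat* and *Slc5a7*, the genes found as most like *Ngfr*, so its relation to *Ngfr* follows in part from that choice. It had no called gene among 5 tested (median log2 fold change -0.24, sums from 196 to 410 CPM in the CIE rats and from 184 to 470 CPM in the Control rats). A further gene of the list, *Slc18a3*, did not pass the filter on low counts. With the score of this list as a covariate the log2 fold change of *Ngfr* was 0.03, which is given as a description. The part of these cells in the level of *Ngfr* was not tested beyond these values.

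The other marker lists are read against the 8.31% of all genes that passed the nominal threshold. Lower at a nominal p value below 0.05 were 7 of 10 meningeal fibroblast markers, 5 of 9 mural markers, 5 of 12 endothelial markers (2 were higher), 3 of 12 astrocyte markers (2 were higher), 3 of 12 central amygdala markers (1 when any one of CIE rats 2 and 6 or Control rats 7, 8 and 9 was left out) and 1 each of 12 neuron, 9 OPC and 10 microglia markers, of which the neuron list (8.33%) and the OPC list (11.1%) lie near the share of all genes, as does the microglia list. With all 12 rats, 3 meningeal fibroblast, 1 mural and 1 endothelial marker passed 5% FDR, and no marker of the other lists did. With 1 rat left out, in either direction, 6 to 8 meningeal fibroblast, 5 to 6 mural and 2 to 4 astrocyte markers were called. Endothelial markers called ran from 4 (without CIE rat 4) to 8, and central amygdala markers from 1 to 4 (without CIE rat 3). For neuron, OPC and microglia markers the ranges were 0 to 3, 1 to 3 and 1 to 2. None of 9 striatal markers was called with all 12 rats, and 8 were without Control rat 10. The striatal sum ran from 419 to 3138 CPM in the CIE rats and from 236 to 3514 CPM in the Control rats. *Ntrk2* had r = -0.77 with the striatal score, which rested on CIE rat 2 and Control rat 10 (r = -0.11 without them). *Gdnf* had r = 0.67 with the endothelial score (r = 0.84 without CIE rat 6 and Control rat 12), and neither relation passed 5% FDR.

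**Figure D4:**
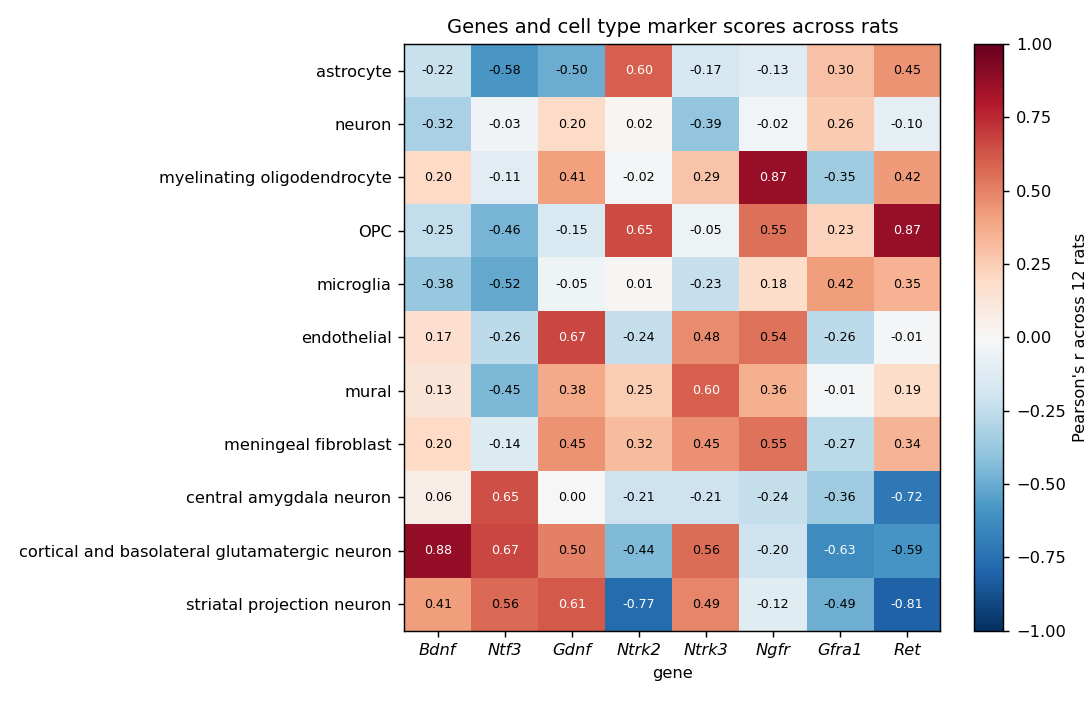
Pearson's r across 12 rats, with the group means removed, between log2 CPM of each of the 8 genes (columns) and the score of each marker list (rows), from -1 (blue) to 1 (red). The strongest positive values are those of *Bdnf* with cortical and basolateral markers (0.88), *Ngfr* with myelin markers (0.87) and *Ret* with OPC markers (0.87), and the strongest negative value is that of *Ret* with striatal markers (-0.81).

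The 2 ligands nearest the nominal threshold were read under other settings. The log2 fold change of *Bdnf* lay between 0.71 and 1.41 in every setting except that with the cortical and basolateral score, and its nominal p value fell below 0.05 with library size only, with no filter and with limma-voom. That of *Ntf3* lay between 0.28 and 0.69 and its nominal p value fell below 0.05 in 6 settings that kept all 12 rats. *Ret* passed the nominal threshold with 1 surrogate variable (0.40) and with the striatal score (0.39), and turned to -0.04 with the central amygdala score.

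**Figure D5:**
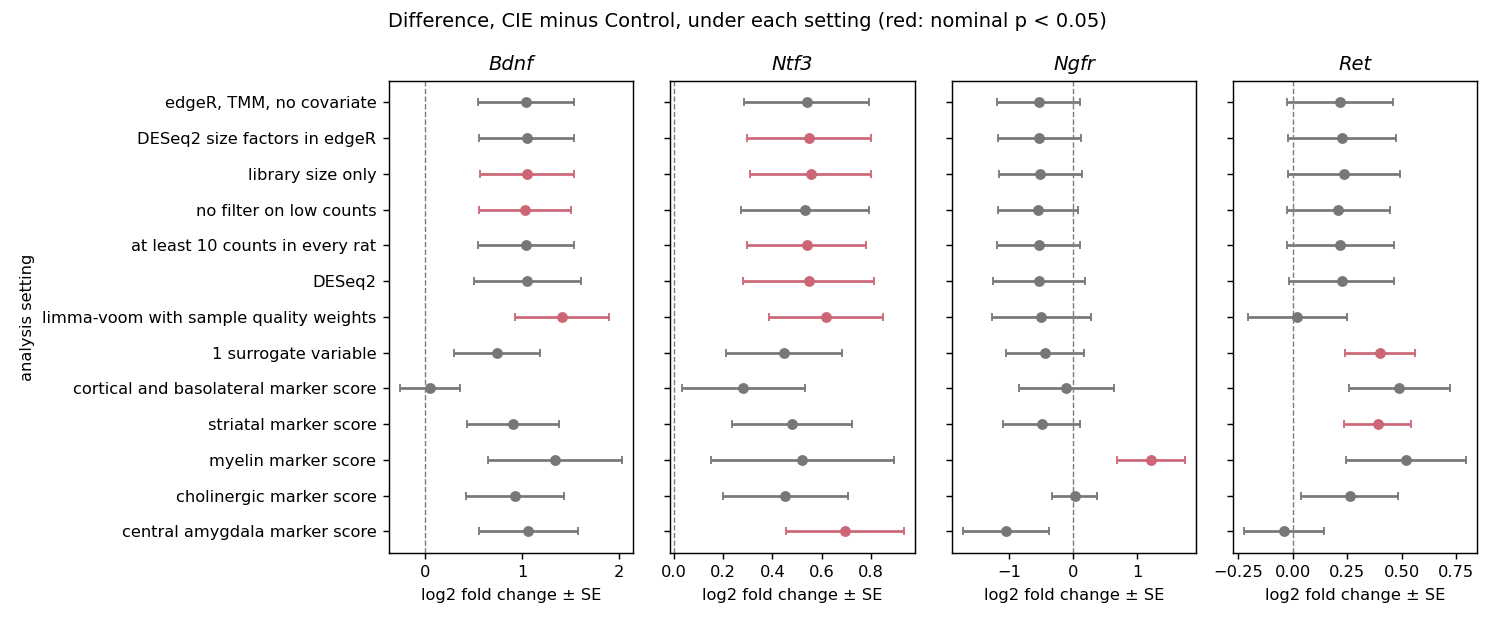
Log2 fold change between CIE and Control (points, x axis) with its SE (lines) for *Bdnf*, *Ntf3*, *Ngfr* and *Ret* under each of 13 settings (rows), red where the nominal p value was below 0.05. *Bdnf* falls to 0.05 with the cortical and basolateral score, and *Ngfr* moves from -0.54 to 1.21 with the myelin score. CIE and either of these scores cannot be told apart in those fits.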

How the data were processed

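Total RNA from the CeA was isolated and sequenced as paired reads. Per the labels and the study's methods, the authors mapped reads to Rnor_6.0 with BWA, counted them per gene with HTSeq and compared groups with DESeq2 1.26. The annotation, strand and overlap settings are not given in the sources used here, so genes that overlap others are uncertain. The deposited values are raw counts of 37209 genes, 7757 of them 0 in every rat. A higher total (39082548 to 95647601) gives a scarce gene a smaller counting error.

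Counts were analysed with edgeR 4.0.16 (TMM, filterByExpr, quasi-likelihood F test, two-sided, no covariate, 20944 genes) in R 4.3.3, with DESeq2 1.42.0, limma 3.58.1 and sva 3.50.0 as alternatives, and with Python 3.11.15. The SE comes from the log2 fold change and the F statistic, and the replicates are single rats. CPM is TMM-normalized, log2 CPM has a prior count of 2, and ratios have 0.5 added to each count. A marker score is the mean z score of the log2 CPM of a list. Limma-voom was run with sample quality weights, so it differs from the edgeR fit in the tool and in how much each rat counts. The script was tested on simulated data. The 8 genes and all lists were chosen with earlier results of these data known. Genes named beside them are pathway genes with a nominal p value below 0.05, and the 3 most alike genes of each, of which 1 is not reported here. *Bex3* and *Ngfrap1* are 1 gene, and *Gdf15*, *Mmp3*, *Mmp7* and *Spry4* did not pass the filter. Nor did the listed markers *Gpr17* (OPC), *Myh11* (mural), *Ido1* (striatal) and *Slc18a3* (cholinergic). The alternatives were other normalizations, filters and tools, 1 surrogate variable, 3 marker scores as covariates, a nominal threshold of 0.01, 5 added to counts in ratios and leaving out each rat. The cholinergic and central amygdala scores as covariates and the relations with marker lists were chosen after seeing the data.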

Additional observations from a re-analysis of the deposited data

Results flagged for a closer look

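The log2 ratio of *Ngfr* to *Ntrk2* was -8.57 in Control rat 12, while the other 5 Control rats lay between -5.11 and -3.77, so this rat stood far from the rest of its group. It was the 1 value that stood apart among 32 groups of 6 rats examined, and chance sets apart about 1 in 20 groups. *Ngfr* was at 2.07 CPM and *Chat* at 5.87 CPM in this rat, each the lowest of all 12 rats. Without it, the difference of this ratio between the groups was -1.28 in place of -0.60.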

How the results depend on the processing

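The spread between rats limited precision most for *Ngfr* and *Bdnf* (SE 0.65 and 0.49 on the log2 scale), and counts were lowest for *Ntf3*. None of the 8 genes passed 5% FDR in any of the 24 other fits. At a nominal threshold of 0.05 the number of the 8 genes called was 0, and it was 1 with DESeq2's size factors, a minimum of 10 counts in each rat, no filter, DESeq2, 1 surrogate variable, the striatal, the myelin or the central amygdala score, and 2 with library size only and with limma-voom. Leaving out 1 rat gave 0 to 2. Over all genes the share called was 8.31%, 17.2% with limma-voom, and between 7.44% and 11% in the other settings at that threshold that kept all rats. With 1 rat left out the share of all genes lay between 6.38% and 13.3%. The log2 fold change of *Bdnf* passed the nominal threshold at 1.05 (library size only), 1.03 (no filter) and 1.41 (limma-voom), and without CIE rat 3, 5 or 6 or Control rat 10, with a range of 0.71 (without CIE rat 1) to 1.33 (without Control rat 10). That of *Ntf3* passed it at 0.55 with DESeq2's size factors, library size only (0.55) and DESeq2 (0.55), at 0.54 with at least 10 counts in every rat, at 0.62 with limma-voom and at 0.69 with the central amygdala score, and without CIE rat 3 or 6 or Control rat 9 or 10 (range 0.41 to 0.67). *Ret* passed it at 0.40 with 1 surrogate variable and at 0.39 with the striatal score, and was -0.0399 with the central amygdala score (range without 1 rat 0.012 to 0.38). The sign turned for *Gdnf* with limma-voom (0.048), the myelin score (0.22) and without Control rat 10 (range -0.35 to 0.0062), for *Ntrk2* with limma-voom (-0.017), the central amygdala score (-0.0003) and without CIE rat 6 or Control rat 10 (range -0.025 to 0.049), for *Ntrk3* with limma-voom (0.035), the myelin score (0.045) and without CIE rat 3 or 5 or Control rat 7 or 10 (range -0.056 to 0.021), for *Gfra1* with limma-voom (-0.14), the myelin score (-0.17) and without CIE rat 3 or Control rat 10 (range -0.0595 to 0.24), and for *Ngfr* with the myelin (1.21) and cholinergic (0.0265) scores (range without 1 rat -1.16 to -0.28). The number of pathway genes at a nominal p value below 0.05 (2) was 5 with DESeq2's size factors, library size only, DESeq2 and the cholinergic score, 4 with at least 10 counts, 23 with limma-voom (21.5%, against 17.2% of all genes), 8 with 1 surrogate variable, 7, 6, 12 and 10 with the cortical, striatal, myelin and central amygdala scores, and 1 at a threshold of 0.01. With 1 rat left out it was lowest at 1 (Control rat 9) and highest at 15 (CIE rat 3, 14.0%, against 13.3% of all genes). The cause of these moves was not tested. Without 1 rat, the differences of log2 ratios ran from 0.66 to 1.22 (*Bdnf* to *Ntrk2*), from 0.41 to 0.70 (*Ntf3* to *Ntrk3*, nominal without CIE rat 6 or Control rat 9 or 10), from 0.26 to 0.71 (*Bdnf* to *Ntf3*), from -0.0387 to 0.11 (*Ntrk2* to *Ntrk3*, turned without Control rat 10), from -1.28 to -0.22 (*Ngfr* to *Ntrk2*) and from -0.0761 to 0.25 (*Ret* to *Gfra1*, turned without CIE rat 1 or 6). No paired analysis was possible because the groups share no rat numbers.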
